A study of Mus musculus with 2 samples.

Results

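The haemoglobin genes of the mouse, Hba-a1, Hba-a2, Hbb-bs, Hbb-bt and Hbb-y, and Alas2, the erythroid enzyme that starts haem synthesis, were followed through 2 single-cell RNA libraries of newborn brain. They are 6 of the 27998 genes in the count tables, and were chosen by their UMI counts in these libraries: earlier results had shown the list to be lower in the knockout library. The difference between the libraries over all barcodes is therefore given as a description. The WT library came from wild type C57BL/6 mice at postnatal day 0 (P0), and the cKO library from STINGf/f;Nestin-Cre mice of the same strain and age, in which Cre under the Nestin promoter deletes floxed STING (listed as Tmem173) in neural progenitors and their descendants. The control is labelled WT, whereas the study's text also calls it floxed STING, so whether it carries the floxed allele is not settled here. The labels name the tissue as telencephalic tissue, the study's methods as cerebral cortex, and the labels state no number of animals, and each genotype has 1 library, so there was no replicate and genotype and library cannot be told apart. All intervals are exact 95% intervals that cover counting error only, and no p-value can be given.

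Haemoglobin carries oxygen as a tetramer of α-type and β-type chains. In the mouse Hba-a1 and Hba-a2 encode the adult α chain, Hbb-bs and Hbb-bt the adult β chains of the C57BL/6 haplotype, and Hbb-y an embryonic β-like chain that primitive red cells of the yolk sac make before the fetal liver takes over. Brain tissue makes no red cells: those in a dissociated brain come from its vessels, and their abundant globin mRNA is a common free RNA in droplet libraries. Red cells of the newborn mouse include reticulocytes, which have lost the nucleus but still hold globin mRNA.

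The WT library held 10715 barcodes and 69554624 UMIs (unique molecular identifiers, each counting 1 captured molecule), the cKO library 9198 barcodes and 67448785 UMIs. A cell was kept when it had at least 500 genes, at most 10% mitochondrial UMIs and no doublet call, which left 6601 WT and 5974 cKO cells at a median of 6552 and 7537 UMIs. Tmem173 gave 126 UMIs in the WT kept cells and 18 in the cKO kept cells. The libraries also differed in sex-linked transcripts, with 10 Xist UMIs in WT against 71370 in cKO and 9771 UMIs of Y-linked genes in WT against 6. There were 19 barcodes that both libraries shared, none of them erythroid. Clusters led by Six3, Isl1 or Adora2a, genes of the striatum, were present in both libraries beside cortical neurons and progenitors.

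The adult globin genes come in near-identical pairs, which bears on how far the counts of each can be told apart. The coding sequences of Hbb-bs and Hbb-bt are 444 bases long and differ at 1 base, C417T from Hbb-bs to Hbb-bt, with positions counted from the A of the start codon in the GENCODE M21 transcripts (GRCm38). Those of Hba-a1 and Hba-a2 are 429 bases long and also differ at 1 base, C381T. The last 90 coding bases of each are shown because they hold that base, written in capitals.
Hbb-bs: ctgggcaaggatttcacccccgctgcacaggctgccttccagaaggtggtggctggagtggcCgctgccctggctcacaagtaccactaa
Hbb-bt: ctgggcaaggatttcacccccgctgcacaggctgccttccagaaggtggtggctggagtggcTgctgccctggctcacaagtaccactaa
Hba-a1: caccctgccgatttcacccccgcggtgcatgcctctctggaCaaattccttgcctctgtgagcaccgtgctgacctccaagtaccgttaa
Hba-a2: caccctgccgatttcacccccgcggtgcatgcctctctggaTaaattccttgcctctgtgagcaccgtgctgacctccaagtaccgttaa
The 3′ untranslated regions separate the β pair, with 70.1% identity between Hbb-bs and Hbb-bt, but hardly the α pair: all 74 bases of the Hba-a1 region match in the alignment with that of Hba-a2, which is 16 bases longer. Among the 151 windows of 100 bases in the last 250 bases of Hbb-bs, 0 occurred in the last 250 bases of Hbb-bt. Between Hba-a1 and Hba-a2 35 of 151 such windows were shared. Over the coding and 3′ untranslated regions together, 304 of 404 windows of Hba-a1 (75.2%) occurred in Hba-a2. For Hbb-bs and Hbb-bt it was 317 of 476 (66.6%). Cell Ranger, the program that counted the reads, keeps reads that map to 1 gene, so the very low Hba-a2 counts below are uncertain as a measure of that gene, and the α pair is best read as a sum. Hbb-y shares 75.4% of its aligned coding bases with Hbb-bs and no window of 100 bases, so it can be told from the adult genes. Alas2 overlaps Apex2 and Mir3620 on the opposite strand.

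Because the 4 adult globins and Alas2 were counted mostly in the same barcodes, and Hbb-y was not, the 120 bases before each RefSeq start site are shown (RefSeq, GRCm38.p6, in the direction of the gene), with capitals for any match on either strand to 4 motifs. The motif CACCC is the core letters bound by KLF factors. The motif CCAAT is the CCAAT box. The motif GATAA is a core letter string of GATA factors. The motif TATAA is that of the TATA box.
Hba-a1, chr11:32283552-32283671, plus strand: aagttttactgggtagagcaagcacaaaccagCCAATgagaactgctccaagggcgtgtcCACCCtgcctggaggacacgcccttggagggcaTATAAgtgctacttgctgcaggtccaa
Hba-a2, chr11:32296372-32296491, plus strand: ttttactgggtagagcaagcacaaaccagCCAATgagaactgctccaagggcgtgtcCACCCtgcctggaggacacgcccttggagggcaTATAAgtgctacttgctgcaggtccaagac
Hbb-bs, chr7:103827929-103828048, minus strand: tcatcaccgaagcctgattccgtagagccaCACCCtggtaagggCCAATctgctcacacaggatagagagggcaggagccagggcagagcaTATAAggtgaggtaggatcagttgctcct
Hbb-bt, chr7:103813924-103814043, minus strand: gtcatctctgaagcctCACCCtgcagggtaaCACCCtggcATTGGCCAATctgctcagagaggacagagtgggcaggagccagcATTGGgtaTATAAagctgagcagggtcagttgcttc
Hbb-y, chr7:103853208-103853327, minus strand: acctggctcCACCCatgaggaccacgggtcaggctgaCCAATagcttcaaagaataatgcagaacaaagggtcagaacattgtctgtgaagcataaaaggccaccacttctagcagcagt
Alas2, chrX:150547297-150547416, plus strand: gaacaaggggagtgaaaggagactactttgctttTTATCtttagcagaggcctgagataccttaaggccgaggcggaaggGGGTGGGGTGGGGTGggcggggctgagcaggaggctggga
Both α promoters and that of Hbb-bs held 1 CACCC, 1 CCAAT and 1 TATAA each. Hbb-bt held 2 CACCC, 3 CCAAT and 1 TATAA, and 2 of its CCAAT matches were on the opposite strand. No match overlapped another. Hbb-y held 1 CACCC and 1 CCAAT and no TATAA. Alas2 held 3 CACCC, all on the opposite strand, and 1 GATAA on the opposite strand. Of 32851 windows of this length in the promoter table, 31.7% held the first motif, 21.3% the CCAAT box, 10.5% the GATA letters and 11.8% the TATA letters, so these short matches are a description and say nothing of binding.

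Globin UMIs were held by a few barcodes. In WT 9705 barcodes (90.6%) had 0 UMIs of the 5 globins and 36 barcodes had 80% or more of their UMIs from them, which alone held 68.5% of all globin UMIs. In cKO 8796 barcodes (95.6%) had 0 and 16 barcodes had 80% or more, with 62.1% of the globin UMIs. A barcode was called erythroid when at least 10% of its UMIs came from the 5 globins. There were 58 such barcodes in WT, 0.541% (0.411 to 0.699) of the library, and 35 in cKO, 0.381% (0.265 to 0.529). The interval of the WT share and that of the cKO share overlapped. Nearest to the limit, the highest barcode outside it had 9.39% globin in WT and 8.62% in cKO, and the lowest inside it 11.8% and 10.3%. All 4 of these were deep barcodes with 5014 to 6696 genes.

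Most erythroid barcodes were poor in genes. There were 47 WT and 32 cKO erythroid barcodes with fewer than 1000 genes, at a median of 357 and 272.5 genes and 84.4% and 80.4% globin. The other 11 in WT and 3 in cKO had 1481 to 5664 genes and 1883 to 6531 genes. The filter on cells kept only 14 of the 58 WT and 4 of the 35 cKO erythroid barcodes, so a filtered cell table holds few of these cells.

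**Figure D1:**
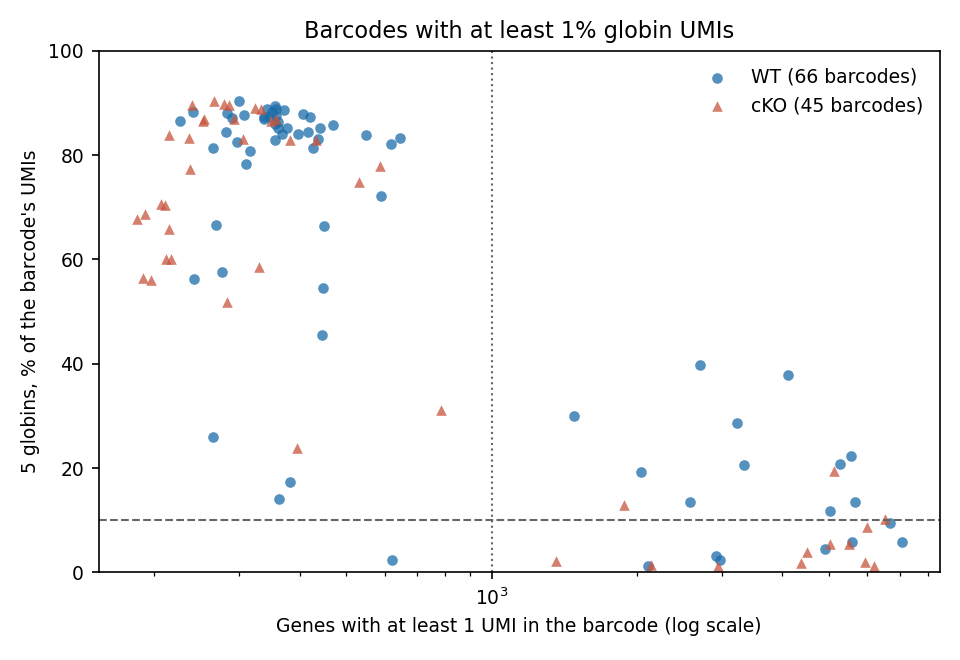
Each point is a barcode with at least 1% of its UMIs from the 5 globins (66 WT barcodes as circles, 45 cKO barcodes as triangles), with the number of genes on a log scale against the globin share in percent. The dashed line is the 10% limit of an erythroid barcode and the dotted line 1000 genes; most points lie at the upper left, under 1000 genes and over 50% globin, and a second group lies over 1000 genes and under 40%.

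Summed over all barcodes, the 5 globins made up 2896 CPM (2884 to 2909; CPM is the UMIs of a gene over all UMIs of the library, times 1e6) in WT and 1464 CPM (1455 to 1473) in cKO, a log2 ratio of cKO over WT of −0.98. This value chose the genes and is a description. The members did not share it. Hbb-bs, the main adult β gene, was at 1907 CPM in WT and 852 CPM in cKO, with a log2 ratio of −1.16 (−1.18 to −1.15). Hba-a1, the main α gene by count, was at 836 CPM and 463 CPM, −0.85 (−0.87 to −0.83). Hba-a2 was at 13.9 CPM and 7.50 CPM, −0.89 (−1.04 to −0.73). These 3 were all lower in the cKO library. Hbb-bt, the minor adult β gene, was at 139 CPM in WT and 141 CPM in cKO, a log2 ratio of 0.02 (−0.02 to 0.06). Alas2 was at 12.6 CPM and 9.52 CPM, −0.40 (−0.55 to −0.25). Over the 17411 genes with at least 10 UMIs the median log2 ratio was −0.30, so Alas2 was close to the whole library and Hbb-bt stood above it. With TMM scaling, which sets aside that shift, Alas2 was at −0.13 and Hbb-bt at 0.29, and Hba-a1, Hba-a2 and Hbb-bs stayed below 0 at −0.58, −0.62 and −0.89. Of the 5 members with 10 UMIs or more, 1, Hbb-bs, was lower in cKO by over 2-fold and 0 were higher, where 22.7% of all genes were lower and 3.66% higher. Since the rule used this contrast, nothing is read from that count.

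Embryonic globin was at or next to nothing. Hbb-y was not counted in WT (0 UMIs) and had a single UMI among all cKO barcodes (1), which lay in a kept cell that was no erythroid barcode. In the erythroid barcodes it took 0 of 135233 β-type UMIs in WT, which allows up to 0.00273% (the upper bound of the exact interval), and 0 of 60760 in cKO, up to 0.00607%. Of the other embryonic genes, Hba-x (ζ globin) had 4 and 9 UMIs and Hbb-bh1 had 1 and 0, none of them in an erythroid barcode, and Hbb-bh2 had 0. The globins counted in both libraries were thus of the adult genes.

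The erythroid barcodes differed between the libraries in the makeup of their β-type UMIs. Hbb-bt took 6.83% (6.69 to 6.96) of β-type UMIs in the 58 WT barcodes and 14.5% (14.3 to 14.8) in the 35 cKO barcodes. In CPM of these barcodes, Hbb-bt was at 25443 in WT and 49704 in cKO and Hbb-bs at 347253 and 292156. The log2 ratio of Hbb-bs was −0.25 and that of Hbb-bt 0.97. With the TMM factors of all barcodes they were 0.020 and 1.23. No factors were computed on the erythroid barcodes alone, so the sign for Hbb-bs is not settled. The pooled shares are taken within 1 library, so the scaling between libraries does not enter them, and barcodes rich in globin weigh most. The sum of the α genes took 29.2% (29.0 to 29.4) of globin UMIs in WT and 32.3% (32.0 to 32.6) in cKO. The counting intervals of these shares do not overlap, but UMIs of a single red cell are not independent, and the spread between barcodes is far wider. Among barcodes under 1000 genes with at least 3000 globin UMIs, the Hbb-bt share ran from 0.873% to 10.5% with a median of 7.05% in 30 WT barcodes. In 14 cKO barcodes of that kind it ran from 6.07% to 23.7% with a median of 15.1%. The ranges overlapped between 6.07% and 10.5%. Over all erythroid barcodes the medians lay closer together, at 6.05% in WT and 7.72% in cKO. Pooled barcodes with 1000 genes or more gave the same order, with 7.88% (7.58 to 8.19) in 11 WT and 18.5% (17.6 to 19.3) in 3 cKO barcodes. Singly these ran from 1.06% to 10.5% in WT and from 4.62% to 20.8% in cKO. How many animals these red cells came from is not stated, so a difference between animals and one between genotypes cannot be told apart.

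The Hbb-bt share also moved with the amount of globin in a barcode. In WT its median was 0% in 7 barcodes with fewer than 1000 globin UMIs, 1.92% in 10 barcodes with 1000 to 3000, and 7.05% in the 30 above. In cKO the medians were 1.94%, 4.46% and 15.1% in 13, 5 and 14 barcodes. The α share moved the other way, with WT medians of 57.3%, 36.2% and 28.3% and cKO medians of 43.5%, 35.9% and 30.3%. The barcodes poorest in globin spread widest, from 34.2% to 90.9% α in WT and from 11.6% to 91.3% in cKO. The number of barcodes with few globin UMIs differed between the libraries. The median Hbb-bt share was higher in cKO in each of the 3 size classes, and the ranges of the libraries overlapped in each. The part of globin content in the difference between the libraries was not tested.

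**Figure D2:**
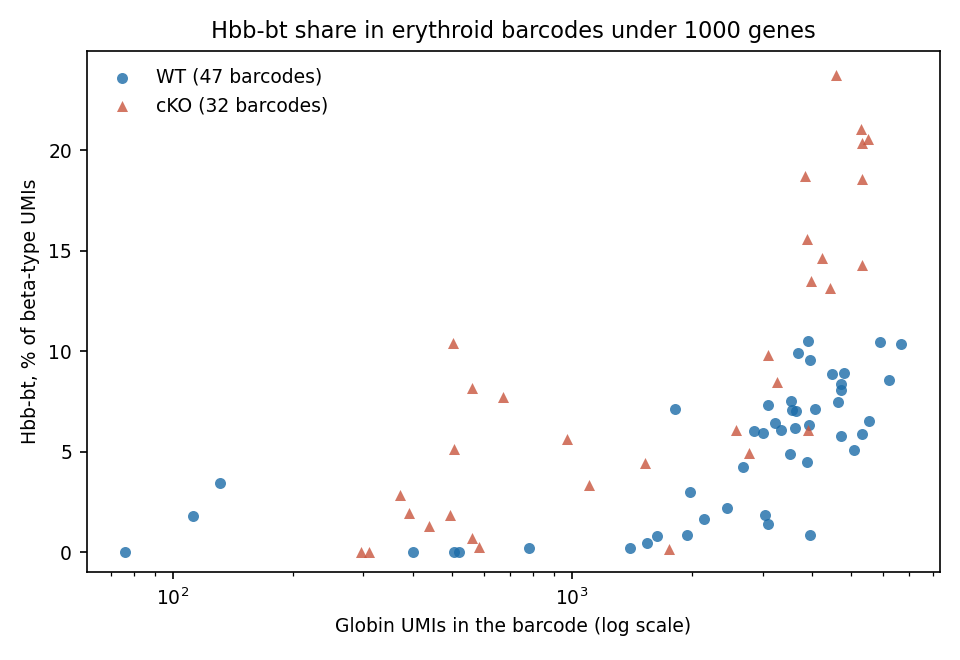
Each point is an erythroid barcode with fewer than 1000 genes (47 WT as circles, 32 cKO as triangles), with its globin UMIs on a log scale against the share of Hbb-bt among its β-type UMIs in percent. Above 3000 globin UMIs the WT points lie between 0.873% and 10.5% and the cKO points between 6.07% and 23.7%.

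Alas2 was found in 54 of 58 WT and 30 of 35 cKO erythroid barcodes, at 14.2 and 16.7 UMIs per barcode. Of all Alas2 UMIs, 821 of 873 in WT and 586 of 642 in cKO lay there. Relative to globin, barcodes under 1000 genes with at least 3000 globin UMIs had a median of 4.53 Alas2 UMIs per 1000 globin UMIs in WT (0.647 to 6.64) and 6.28 in cKO (3.88 to 12.3). The ranges overlapped. Alas2 is X-linked, and the libraries differed in Xist and Y-linked UMIs as given above; whether the sex of the animals bears on Alas2 was not tested.

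Other erythroid genes were counted in the same barcodes, by lists that were chosen with earlier results of these data known. Taking both libraries together, 508 of 17411 genes (2.92%) were over 2-fold higher in erythroid than in all other barcodes and 23.9% lower, with 10 CPM added to both. The 5 members with 10 UMIs or more were all higher, which the choice of barcodes fixes for the 4 globins. Alas2 was at 2603 CPM against 0.791 CPM, and since the members were chosen on these counts, that is a description too. Among the genes of late red cell maturation 11 of 15 measured genes were over 2-fold higher. Of these 1, Trim10, reached the 10 UMIs only through the erythroid barcodes and so adds no support. Another, Tfrc, the transferrin receptor, had 56 WT and 27 cKO UMIs in erythroid barcodes but 0 and 2 in those under 1000 genes, and Car2, a carbonic anhydrase, 24 and 16 against 4 and 12. Ube2l6, an E2 enzyme for ubiquitin and ISG15, was at 703 CPM in erythroid and 3.53 CPM in other barcodes. Fam46c, a poly(A) polymerase, was at 403 CPM and 1.38 CPM. Bpgm, which makes the 2,3-bisphosphoglycerate that tunes oxygen release, was at 1069 CPM and 65.8 CPM. These genes had a median log2 ratio of 1.69 where the median of all genes was −0.35.

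Of the haem synthesis genes 3 of 12 were higher in erythroid barcodes, namely Fech, which inserts iron, at 620 CPM against 22.3 CPM, Slc25a37, the mitochondrial iron importer, at 348 CPM against 2.53 CPM, and Urod. Alas1, the form of the enzyme in other tissues, was at 33.3 CPM and 17.4 CPM, and Tmem14c, a mitochondrial porphyrin transporter, at 74.0 CPM and 68.3 CPM. Of the red cell membrane genes 5 of 13 were higher, but all of these except Epb41 reached the 10 UMIs only through the erythroid barcodes, so this count supports nothing. Epb41, protein 4.1 of the membrane skeleton, was at 199.8 CPM and 44.4 CPM. Slc4a1, the band 3 anion exchanger, had all of its 18 WT and 23 cKO UMIs in erythroid barcodes. Among the regulators 1 of 11 was higher, Lmo2, and 94 and 34 of its UMIs lay in erythroid barcodes, of which 1 and 4 were in barcodes under 1000 genes. Gata1 and Klf1, the factors of early erythroid cells, had 0 UMIs in erythroid barcodes of both libraries, and so had Hemgn, Epb42 and Rhag. At 362851 and 177734 UMIs, a count of 0 allows a level of up to 8.27 CPM and 16.9 CPM (3 counts).

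In the erythroid barcodes under 1000 genes, 117 of 639 genes (18.3%) were over 2-fold higher in cKO and 56 (8.76%) over 2-fold lower. Slc4a1 had 12 UMIs in WT and 22 in cKO there, a log2 ratio of 1.76 (0.68 to 2.91). They lay in 9 of the 47 WT and 5 of the 32 cKO barcodes. Prdx2, a peroxiredoxin, had 122 and 153, 1.21 (0.86 to 1.57). Prdx2 was not higher in erythroid than in other barcodes, at 819 CPM against 931 CPM. Fech was at 135 and 118, 0.69 (0.32 to 1.06), and Ube2l6 at 188 and 113, 0.15 (−0.20 to 0.50). Isg20, an interferon-stimulated exonuclease, had 52 and 19 UMIs and −0.57 (−1.41 to 0.22). Bnip3l, which mediates the clearance of mitochondria, had 146 and 74 and −0.09 (−0.52 to 0.32). The values of Isg20 and Bnip3l were below 0 with intervals that held 0, and the interval of Ube2l6 held 0 too. The 5 globins summed were at −0.05 on this scale.

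By a fixed rule of size, the other genes with the highest level in erythroid over other barcodes included Gpx1, Igfbp7, Rgs5, Ucp2, Rsad2, Itm2a, Ptprb, Slc2a1 and Apod. Gpx1, a glutathione peroxidase, had 833 UMIs in erythroid barcodes, at 1541 CPM against 115 CPM. Igfbp7, Ptprb, Slc2a1 and Itm2a are expressed in brain endothelial cells and Rgs5 in pericytes.

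Endothelial and mural markers were found in the erythroid barcodes with 1000 genes or more. Cldn5, the claudin of the blood-brain barrier, had 342 UMIs in 6 of the 11 such WT barcodes and 262 UMIs in 2 of the 3 such cKO barcodes. It had 0 UMIs in the 47 WT and the 32 cKO barcodes under 1000 genes. The 8 endothelial markers together had 1 UMI there in WT and 0 in cKO, and the 8 mural markers 0 in both. A microglial marker, C1qb, had 80 UMIs in 1 WT barcode. Barcodes that combine globin with another cell's transcripts cannot be told apart from a red cell and another cell in 1 droplet by these counts.

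The same held just below the 10% limit. Of the kept cells with 1% to 10% globin, 6 of 8 in WT and 9 of 9 in cKO were in the endothelial-like cluster, which was formed without the globin and erythroid genes. Among the 175 endothelial-like WT cells the share was 3.43% (1.27 to 7.31), and among the 70 of the cKO library 12.9% (6.05 to 23.0). The other classes held 2 such cells among 6412 in WT, 0.0312% (0.00378 to 0.113), and none (0) among 5900 in cKO, which allows up to 0.0625%. The endothelial-like cells of 1% to 10% globin were deeper than the rest of their class, with a median of 24199 against 14739 UMIs in WT and 23375 against 13535 in cKO.

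Most of these cells carried Alas2 beside globin. In WT Alas2 had 45 UMIs in 4 of the 6 cells (318 CPM over all 6) and 1 UMI in the 169 endothelial-like cells under 1% globin (0.274 CPM). In cKO it had 52 UMIs in 6 of the 9 cells (248 CPM over all 9) and 0 in the other 61. Cldn5 was at 3761 CPM and 3792 CPM in the same WT cells and at 4113 CPM and 3591 CPM in cKO. Slc4a1 had 0 UMIs in these cells of both libraries. Hbb-bt took 6.28% (5.69 to 6.92) of β-type UMIs in all 8 WT barcodes of 1% to 10% globin, against 6.83% in erythroid barcodes. In the 10 cKO barcodes it took 10.5% (9.76 to 11.3), below the 14.5% of cKO erythroid barcodes. Single barcodes ran from 0% to 9.05% in WT and from 0% to 16.9% in cKO.

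**Figure D3:**
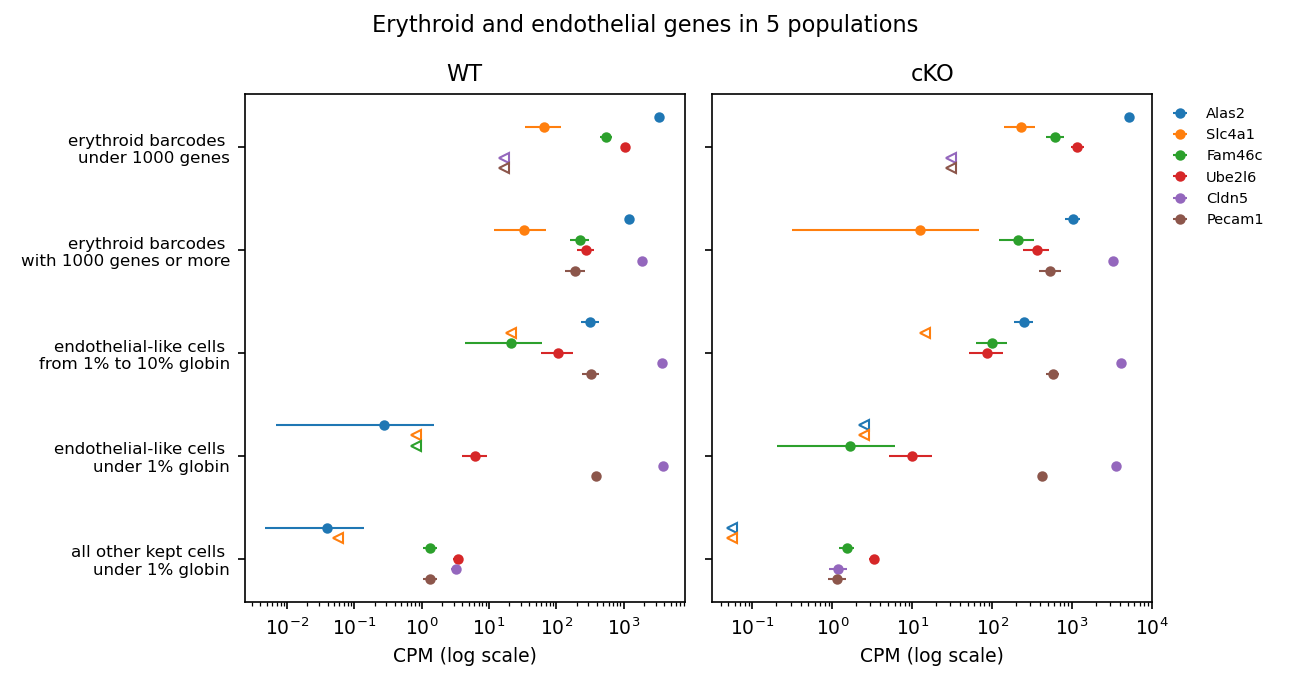
CPM on a log scale of 4 erythroid genes (Alas2, Slc4a1, Fam46c, Ube2l6) and 2 endothelial genes (Cldn5, Pecam1) in 5 populations of barcodes, WT left and cKO right; bars are exact Poisson 95% intervals and open triangles mark the level that a count of 0 allows. Cldn5 is at 0 in erythroid barcodes under 1000 genes and between 3591 CPM and 4113 CPM in endothelial-like cells, and Alas2 drops from 318 CPM to 0.274 CPM between the endothelial-like WT cells over and under 1% globin.

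Outside these barcodes globin was a trace in every class of cell. In the 6587 WT kept cells that were not erythroid the globins made up 1.84 per 10000 UMIs and in 5970 cKO cells 1.61, a log2 ratio of −0.19 (−0.23 to −0.15) that turned to 0.075 with TMM scaling. Most of these UMIs were in the few cells of 1% or more. Without them, 6579 WT cells had 1100 globin UMIs, 0.198 per 10000, and 5961 cKO cells had 385, 0.0703 per 10000. The log2 ratio was then −1.50 (−1.67 to −1.33), and −1.23 with TMM scaling. Hbb-bs was at −1.92 (−2.17 to −1.68), Hba-a1 at −1.01 (−1.27 to −0.74) and Hbb-bt at −1.16 (−2.15 to −0.25). Hba-a2, with 11 and 10 UMIs, was at −0.12 (−1.51 to 1.26) and turned to 0.14 with TMM scaling. Alas2 had 3 UMIs in WT and 0 in cKO.

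Most cells with this trace had a single UMI. In WT 641 of these cells had 1 globin UMI, 58 had 2 and 13 had 3 or more, with 145 in the highest cell. In cKO 268 cells had 1, 7 had 2 and 4 had 3 or more, with 85 in the highest. At least 1 globin UMI was found in 10.8% (10.1 to 11.6) of the WT and 4.68% (4.16 to 5.25) of the cKO cells under 1% globin, although the cKO cells were deeper (median 7536 against 6538 UMIs). With each cell thinned to 1000 UMIs the shares were 1.61% (104 of 6443 cells; 1.32 to 1.95) and 0.684% (40 of 5845; 0.489 to 0.931), and 136 and 116 shallower cells were left out. Globin UMIs per cell were higher in deeper cells, from 0.0266 in WT cells of 500 to 2000 UMIs to 0.584 in those of 16000 or more, and from 0.0219 to 0.249 in cKO. Per 10000 UMIs the level did not follow depth in this way, at 0.210, 0.156, 0.150, 0.213 and 0.235 over the 5 classes of depth in WT and 0.168, 0.103, 0.0505, 0.0510 and 0.102 in cKO. The cells with 145 and 85 globin UMIs are counted in these classes, and the deepest class held 363 and 178 in all. A single cell can thus weigh on a class, and values without these cells were not computed. Barcodes under 1% globin that failed the filter on genes, mitochondrial UMIs or doublets had 0.179 per 10000 in WT and 0.0702 in cKO, close to the kept cells.

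The level lay in a narrow range over the other classes of a library. Under 1% globin, the WT classes other than endothelial-like lay between 0.0845 (microglia-like, 6 UMIs) and 0.164 per 10000 (neuron-like, 376 UMIs). The cKO classes lay between 0.0301 (Cajal-Retzius-like, 4 UMIs) and 0.0605 for those led by Six3, apart from ependymal-like cells at 0.118 from 2 UMIs in 8 cells. The unscaled level was lower in cKO in each class, but the intervals of 3 of the 12 classes held 0. These were endothelial-like (log2 ratio −0.19, −0.52 to 0.13), ependymal-like (−0.04, −3.29 to 2.23) and microglia-like cells (−1.06, −4.40 to 1.42). In ependymal-like and endothelial-like cells the difference was less than the shift of the TMM scaling. The lower level in cKO chose the genes, so these values are a description. Interneuron-like cells were at 0.146 (WT) and 0.0574 (cKO) per 10000. Radial glia or astrocyte-like cells were at 0.130 and 0.0547. Neuron-like cells were at −1.73 (−2.11 to −1.38), with a globin UMI in 15.2% of 2071 WT cells at a median depth of 9605 and in 7.43% of 969 cKO cells at 13761. Most neuron-like clusters held cells of mainly 1 library, and a large cKO cluster led by Adamts2 and Cntn2 stayed unnamed, so the neuron-like cells of the libraries are not the same clusters.

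Endothelial-like cells stood above the other classes also under 1% globin, at 0.968 per 10000 (0.870 to 1.07) in WT and 0.850 (0.693 to 1.03) in cKO. All other classes together were at 0.144 (0.134 to 0.155) and 0.0528 (0.0468 to 0.0593). A few cells made this difference, with up to 145 UMIs in 1 WT cell and 85 in 1 cKO cell. With cells of 0.1% globin or more also left out, endothelial-like cells were at 0.168 (0.128 to 0.216) in WT, against 0.141 (0.131 to 0.151) in the rest. In cKO they were at 0.145 (0.0845 to 0.232) from 17 UMIs, 10 of them in 1 cell, against 0.0515 (0.0456 to 0.0579).

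**Figure D4:**
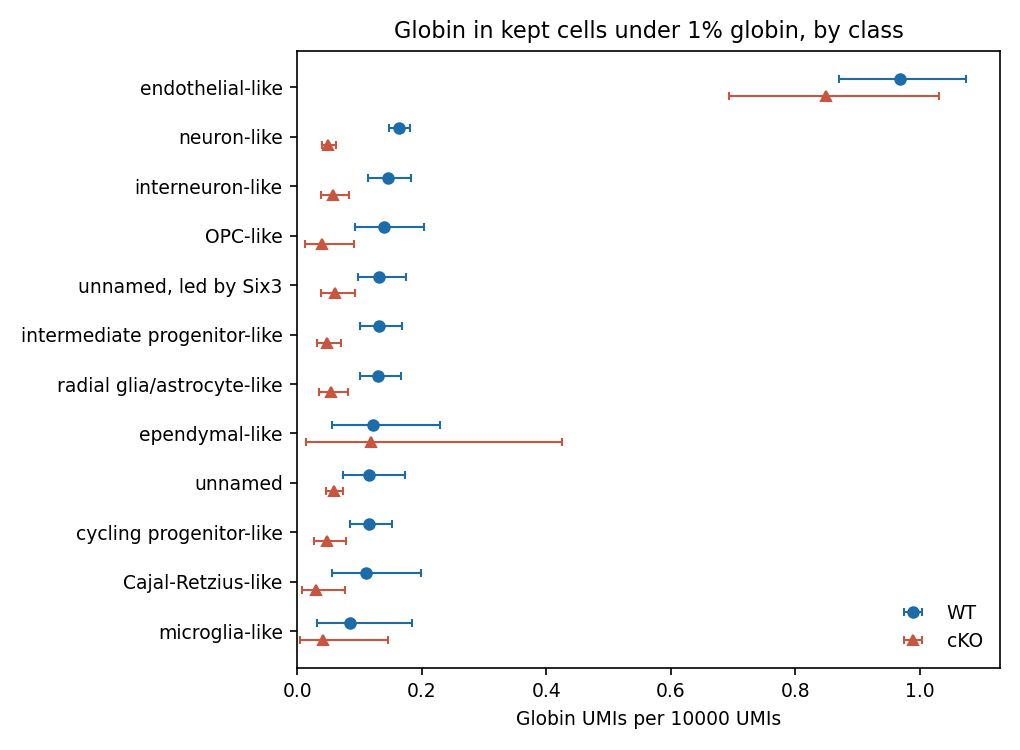
Globin UMIs per 10000 UMIs in kept cells under 1% globin, by class, with exact Poisson 95% intervals (WT circles, cKO triangles). Endothelial-like cells are near 0.9 in both libraries, and in the other classes the WT points lie between 0.0845 and 0.164 and the cKO points, ependymal-like cells apart, between 0.0301 and 0.0605.

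Markers of other cells were found in neuron-like cells at lower levels. Most were lower in cKO, but only for Pdgfra did the intervals of the libraries not overlap. Cldn5 was at 0.0227 per 10000 UMIs (0.0169 to 0.0297) in WT neuron-like cells and 0.0109 (0.00634 to 0.0174) in cKO, and Pdgfra of oligodendrocyte precursors at 0.0144 (0.00990 to 0.0202) and 0.00320 (0.00104 to 0.00747). C1qb was at 0.00697 and 0.00256 with overlapping intervals, and C1qa at 0.00261 and 0.00384. These markers were counted in all neuron-like cells. The summed globins, a total of 5 genes, were the highest, at 0.164 and 0.0493 in neuron-like cells under 1% globin and 0.257 in all WT neuron-like cells. Their part in the difference between the libraries was not tested.

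The pooled α share of the trace was above that of the pooled erythroid barcodes in cKO beyond counting error, and in WT not once endothelial-like cells were left out. Single cKO erythroid barcodes under 1000 genes ran from 22.8% to 34.5% in the 14 richest in globin, below the trace, and from 11.6% to 91.3% with a median of 43.5% in the 13 poorest. In WT the α share was 34.1% (31.3 to 37.0) in cells under 1% globin, against 29.2% in erythroid barcodes. In cKO it was 49.1% (44.0 to 54.2) against 32.3%. Without endothelial-like cells the shares were 32.4% (29.0 to 35.9) of 747 UMIs and 45.6% (39.7 to 51.6) of 283. These pooled values join classes that differed. In WT neuron-like cells the α share was 40.2% of 376 UMIs. The remaining WT classes ran from 11.1% (oligodendrocyte precursor-like, 27 UMIs) to 36.4% (Cajal-Retzius-like, 11 UMIs). In cKO neuron-like cells it was 62.3% of 77 UMIs. The remaining cKO classes ran from 0% (ependymal-like, 2 UMIs) to 75% (Cajal-Retzius-like, 4 UMIs). Among cells with a single globin UMI that UMI was Hba-a1 in 26.1% (22.7 to 29.6) of 641 WT cells and in 41.8% (35.8 to 47.9) of 268 cKO cells. Hbb-bs was the UMI in 68.8% (65.1 to 72.4) and 51.1% (45.0 to 57.2). The difference between the libraries was thus larger for Hbb-bs than for Hba-a1. Hbb-bt took 4.69% (3.27 to 6.49) of β-type UMIs in WT from 34 UMIs and 7.65% (4.35 to 12.3) in cKO from 15, so a difference between the libraries was not detectable in the trace at this depth. In both libraries this share lay below that of the pooled erythroid barcodes, with counting intervals that do not overlap. It lay within the spread of single erythroid barcodes, from 0% to 10.5% in WT (median 6.05%) and from 0% to 23.7% in cKO (median 7.72%).

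**Figure D5:**
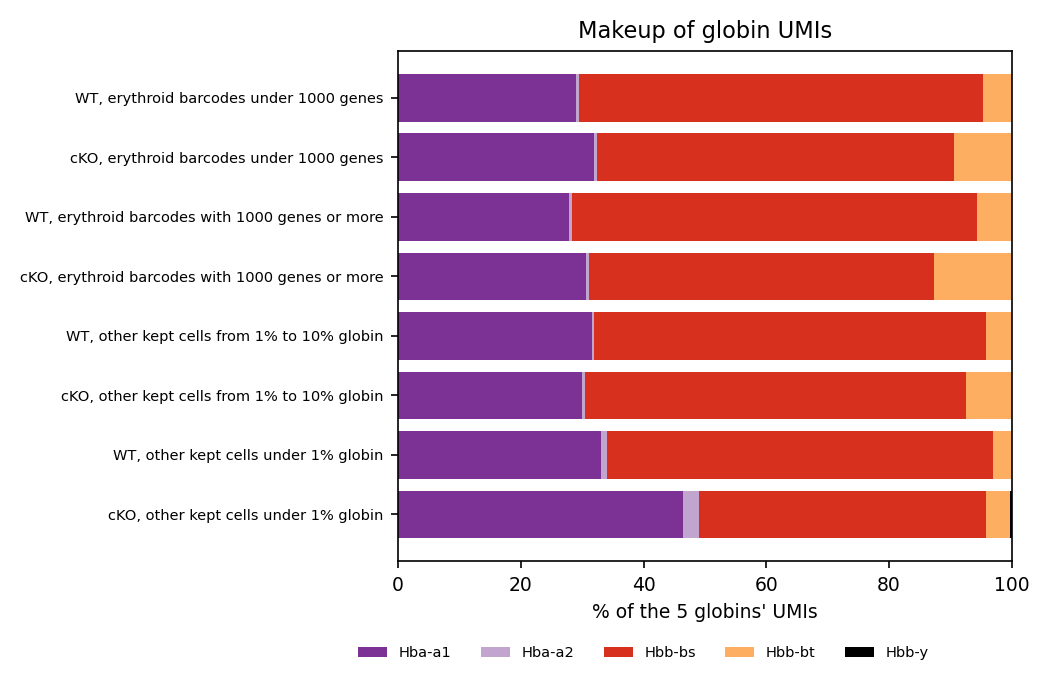
Share of each gene among the UMIs of the 5 globins, in percent, in 4 populations of barcodes of each library. Hbb-bs takes the largest part in every bar (46.8% in cKO cells under 1% globin, 46.5% for Hba-a1 there), Hbb-bt is wider in the cKO bars of erythroid barcodes, and Hba-a1 is widest in the cKO cells under 1% globin.

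Genes listed for other blood cells also differed between the libraries. Of 7 granulocyte genes measured over all barcodes, 6 were over 2-fold lower in cKO and 1 was higher, where 22.7% of all genes were lower and 3.66% higher. S100a8, a calprotectin subunit, was at 26.3 CPM in WT and 4.74 CPM in cKO and Camp, a granule peptide, at 5.79 CPM and 0.133 CPM. Retnlg, a resistin-like gene of neutrophils, had 22 and 205 UMIs. Of 5 platelet genes 4 were over 2-fold lower, with Pf4, platelet factor 4, at 291 and 4 UMIs, while Gp1bb, the most abundant of the list, had 772 and 1259 UMIs (log2 ratio 0.75). Among the 4 lower genes, Gp9 had only 12 and 3 UMIs and Treml1 9 and 2. Ppbp, also listed for platelets, had 0 UMIs in both libraries. Whether the Pf4 UMIs came from platelets was not tested. Endothelial-like cells numbered 175 in WT and 70 in cKO. The part of these in the globin difference was not tested. Of the haem clearance genes 2 of 9 were over 2-fold lower in cKO, a share near that of all genes.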

How the data were processed

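The WT and cKO cells were measured with 10x Genomics 3′ single-cell RNA sequencing. The authors' deposited matrices hold raw UMI counts per gene and barcode, with Cell Ranger 3.0.1 in the header; the submitters' notes list Cell Ranger 2, STAR, Seurat and mm9 with no roles. Depth was 69554624 and 67448785 UMIs, and 0 per-sample columns were left unused. Levels are 3′ UMIs, not scaled by length.

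The members and gene lists were chosen with earlier results of these data known. Haemoglobin per barcode was the sum of the 5 globin genes. Cells were kept at 500 genes or more and at most 10% mitochondrial UMIs. Scrublet's automatic limit called 0 of the cKO cells and 2.44% of the WT cells, so a score of 0.25, chosen after seeing the scores, was used for both libraries (165 WT doublets, 2.44%, and 106 cKO doublets, 1.74%). Other kept cells were clustered (scanpy 1.11.5, Leiden at resolution 1) without globin, erythroid, mitochondrial, ribosomal and sex-linked genes, and named by markers; clusters with Six3 among the leading genes were left unnamed, a choice made after seeing the data. TMM factors came from edgeR 4.0.16 on the summed counts of all barcodes and of other kept cells, and no edgeR test was run. Poisson and Clopper-Pearson intervals and log2 ratios were tested on simulated data. With 1 library a genotype no test between genotypes was possible. Named genes were the members, the listed genes and the 10 other genes with the highest ratio of CPM plus 10 between erythroid and other barcodes, with at least 20 UMIs in erythroid barcodes. Of 99 listed genes outside the members 97 were in the tables. Promoters came from RefSeq (GRCm38.p6) and transcripts from GENCODE M21, whose build is not the mm9 of the notes. Some genes that met these rules are not reported here.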

Additional observations from a re-analysis of the deposited data

How the results depend on the processing

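No paired analysis was possible because each genotype has 1 library, and for the same reason no replicate could be left out. Of 54 alternative values 24 stayed within the counting interval or 1.5 times of the reported one, 28 moved outside it and 2 changed direction. The log2 ratio of the summed globins over all barcodes was −0.72 with TMM factors, −0.97 without mitochondrial, ribosomal and haemoglobin genes in the total, −1.53 in kept cells only, −0.17 without erythroid barcodes and −1.02 in the combined matrix. In kept cells only, 14 WT and 4 cKO barcodes were erythroid. The log2 ratio in other kept cells was −0.26 with the stricter filter, −1.50 with cells of 1% globin or more left out, −1.23 with that and TMM factors, −1.41 at 0.1%, −0.25 after thinning, −0.23 in the combined matrix, −0.23 as a mean over cells, −0.23 with the automatic doublet limit, and it reversed to 0.075 with TMM factors; here the limit at 1% removed the few cells that hold most of the UMIs. The α share was 34.1% in WT and 49.1% in cKO at the 1% limit and 30.5% and 45.7% at 0.1%. Of 51 listed erythroid genes 8 were over 2-fold lower in cKO and 1 higher (22.7% and 3.66% of all genes were), which became 5 and 3 with TMM factors; with a minimum of 1 UMI 2 were higher. Without cells of 1% globin or more the neuron-like log2 ratio moved from −2.38 to −1.73, and to −1.56 and −1.72 at resolutions 0.5 and 2. The endothelial-like ratio was 1.32, 2.44 at resolution 2, and reversed to −0.19 without those cells. Thinning to 2000 UMIs gave 2.85% of WT and 1.15% of cKO cells with a globin UMI, against 1.74% and 0.735% at 1000. The limit at 0.1%, the limit at 1% for the classes and jointly with TMM, and the automatic doublet limit were added after seeing the data. The cause of the other moves was not tested. Depth limits every count under about 10 UMIs, such as Hbb-y and Slc4a1 outside erythroid barcodes.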
